A study of Mus musculus with 8 samples.

Results

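The binding sites of FLAG-tagged NANOG were compared between a fusion form and the wild-type form of the factor, using the FLAG peak lists of both arms. The NanogWT list held 58940 peaks and the NanogBiD list 74782, together 133722 of the 425777 peaks in the 8 lists of the series. The cells were mouse embryonic fibroblasts (MEFs) at day 5 of reprogramming, and in both arms they also received Oct4, so the arms differed in the form of NANOG. The labels call the arms Nanog+Oct4 and NanogN70+Oct4, and the latter was taken to be the arm that the study's text calls NanogBiD, an inference from the fused domain, in which the N-terminal BRG1-binding domain of SS18 is joined to the N-terminus of NANOG. Per the study's methods the MEFs came from OG2 embryos, which carry an Oct4-GFP reporter transgene, and the factors were delivered by retroviral vectors. Each arm is 1 merged FLAG library. The study's own statements differ on whether repeats were merged or the experiment was done once, so no spread between replicates could be had and no test was run. All intervals cover counting error only.

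NANOG is a homeodomain transcription factor that is central to the pluripotency network of embryonic stem cells and is used to drive reprogramming. The BAF complex is a chromatin remodeller whose ATPase is BRG1, encoded by Smarca4, and SS18 is one of its subunits. In CUT&Tag an antibody, here against FLAG, brings a transposase to its target, and the DNA next to the target is cut out and sequenced. A peak is a stretch where tags pile up. Its summit height is the number of tags at the highest point, and its score, given by the peak caller MACS, grows with the negative log10 of the peak's p-value. FLAG tags can also arise where open chromatin is cut without NANOG, and no FLAG library from cells without a tagged factor was analysed here.

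The sequences at the summits of 9 regions follow, because they show the kinds of sites at which the arms differed most and at which both were high. Of these, 6 are the shared regions with the largest height ratio in each direction. The rest are the highest-scoring region of NanogBiD only, that of NanogWT only, and the lowest of the 3 highest-scoring shared regions. The higher-scoring shared regions, at the start of 4932412D23Rik and in an intron of Cux1, are not printed. Their windows held a KLF/SP match and no match, respectively. Each is the plus strand of mm10, 101 bases centred on the summit. Capitals mark matches, on either strand, to the short motifs searched: the NANOG-type homeodomain site TAATGG, the AP-1 site TGANTCA, the OCT octamer ATGCAAAT, the SOX site ACAATG, the TEAD site GGAATG, the RUNX site TGTGGTT, the KLF/SP box GGGCGG, the ETS site CCGGAAG, the NF-Y box CCAATCA, the RFX site GTTGCCA and the FOX site TGTTTAC.
Near Dsp, higher in NanogBiD, chr13:38133467-38133567: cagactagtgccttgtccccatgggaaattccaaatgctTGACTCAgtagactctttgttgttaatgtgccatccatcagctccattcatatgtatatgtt
Near Kcnk2, higher in NanogBiD, chr1:189415415-189415515: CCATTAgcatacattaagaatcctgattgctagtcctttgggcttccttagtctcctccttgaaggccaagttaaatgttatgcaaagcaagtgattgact
Lmx1b intron, higher in NanogBiD, chr2:33580770-33580870: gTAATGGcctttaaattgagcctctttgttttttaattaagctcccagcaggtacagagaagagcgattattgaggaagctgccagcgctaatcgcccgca
Trappc9 intron, higher in NanogWT, chr15:72982438-72982538: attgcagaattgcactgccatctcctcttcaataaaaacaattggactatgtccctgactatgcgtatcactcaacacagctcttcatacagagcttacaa
Gdnf as nearest coding gene, higher in NanogWT, chr15:7650019-7650119: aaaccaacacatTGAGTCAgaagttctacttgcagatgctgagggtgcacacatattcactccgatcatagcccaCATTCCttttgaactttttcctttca
Near Foxf2, higher in NanogWT, chr13:31683306-31683406: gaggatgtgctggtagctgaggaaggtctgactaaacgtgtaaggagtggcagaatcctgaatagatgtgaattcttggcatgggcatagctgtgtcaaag
Intergenic, NanogBiD only, chr3:6886946-6887046: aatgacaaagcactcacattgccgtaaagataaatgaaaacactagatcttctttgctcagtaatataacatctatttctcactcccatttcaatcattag
Near Pde1a, NanogWT only, chr2:80144477-80144577: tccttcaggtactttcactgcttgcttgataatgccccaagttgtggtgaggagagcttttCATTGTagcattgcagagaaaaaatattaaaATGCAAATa
Ppp2r3d intron, shared, chr9:124425055-124425155: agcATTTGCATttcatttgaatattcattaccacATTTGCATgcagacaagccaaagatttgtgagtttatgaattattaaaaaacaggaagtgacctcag
An AP-1 match lay near the centre of the window near Dsp, and a NANOG-type match lay at the edge of each of the windows near Kcnk2 and in Lmx1b. The window with Gdnf as the nearest coding gene held an AP-1 and a TEAD match, the window near Pde1a an octamer and a SOX match, and the window in Ppp2r3d a pair of octamers. The windows in Trappc9, near Foxf2 and of the intergenic NanogBiD-only region held none of these letters.

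The NanogBiD list held 1.27 times as many FLAG peaks as the NanogWT list (95% exact interval 1.26 to 1.28). The excess was found on each of the 20 chromosomes examined, from 1.18-fold on chromosome 7 to 1.35-fold on chromosome X. The peaks covered 80.0 Mb in NanogBiD and 65.7 Mb in NanogWT. Heights ran from 7 to 91 tags with a median of 15 in NanogBiD, and from 6 to 92 tags with a median of 14 in NanogWT. The number of tags behind each list is not given in the files. The study's reporting summary lists several times fewer read pairs for the NanogWT FLAG library than for the NanogBiD one, and the part of depth in the list sizes was not tested.

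Peak widths and heights were compared in tags as listed, with no scaling for depth. Peaks of equal tags in libraries of unequal depth are not equally enriched, so the parts of depth and of the arm in these values cannot be told apart. Over the whole lists the median width was 943 bp in NanogWT and 906 bp in NanogBiD. Among peaks of 20 tags it was 1254 bp in NanogWT (1729 peaks) and 1076 bp in NanogBiD (2350 peaks), with median scores of 206 and 176. Among peaks of 30 tags the widths were 1656 bp and 1447 bp. Near the detection limit the order turned, since peaks of 8 tags had a median width of 479 bp in NanogWT and 518 bp in NanogBiD. When the NanogBiD list was reduced to its 58940 highest-scoring peaks, the size of the NanogWT list, its median width was 1003 bp and its median height 17 tags. The peaks left out were short and weak: the lowest score kept was 70.8, against 50 in the NanogWT list. When 20000 peaks were taken from the top of either list, the median width was 1371 bp in NanogBiD and 1426 bp in NanogWT, and the median height 26 and 23 unscaled tags. Peaks of 30 unscaled tags or more made up 34.1% of these in NanogBiD and 24.2% in NanogWT, an order that another scaling of the heights could turn.

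Overlapping or touching peaks of both lists were merged into 88195 regions. Both arms had a peak in 44529 of them (50.5%), NanogBiD alone in 29700 (33.7%) and NanogWT alone in 13966 (15.8%). Regions of 1 arm were low. Their median height was 12 tags for NanogBiD only and 11 tags for NanogWT only, against 18 and 16 tags in the NanogBiD and NanogWT lists at shared regions. Heights of 10 tags or less were found in 46.2% of the NanogWT-only regions and 28.2% of the NanogBiD-only regions. Tall regions of 30 tags or more were few, with 541 among the NanogBiD-only regions (1.82%) and 49 among the NanogWT-only regions (0.351%).

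Almost every strong peak of either arm had a counterpart in the other. Of the 1000 highest-scoring NanogWT peaks, 999 overlapped a NanogBiD peak, and of the 1000 highest-scoring NanogBiD peaks, 988 overlapped a NanogWT peak. For the 20000 highest-scoring peaks the shares were 95.5% (Wilson interval 95.2 to 95.8) in NanogWT and 88.3% (87.9 to 88.7) in NanogBiD, and for the whole lists 76.3% and 60.3%. When both lists were reduced to their 1000 highest-scoring peaks, 43.1% overlapped, which rose to 53.1% at 5000 peaks and 63.7% of the NanogWT peaks at 20000. There are no repeat libraries to say what overlap of top peaks the same arm would give. At the full NanogWT list size 68.2% of the NanogWT peaks and 67.9% of the NanogBiD peaks overlapped. Reducing both lists to 1 size gave nearly equal numbers of arm-only regions by construction, 18730 for NanogWT and 18899 for NanogBiD.

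**Figure D1:**
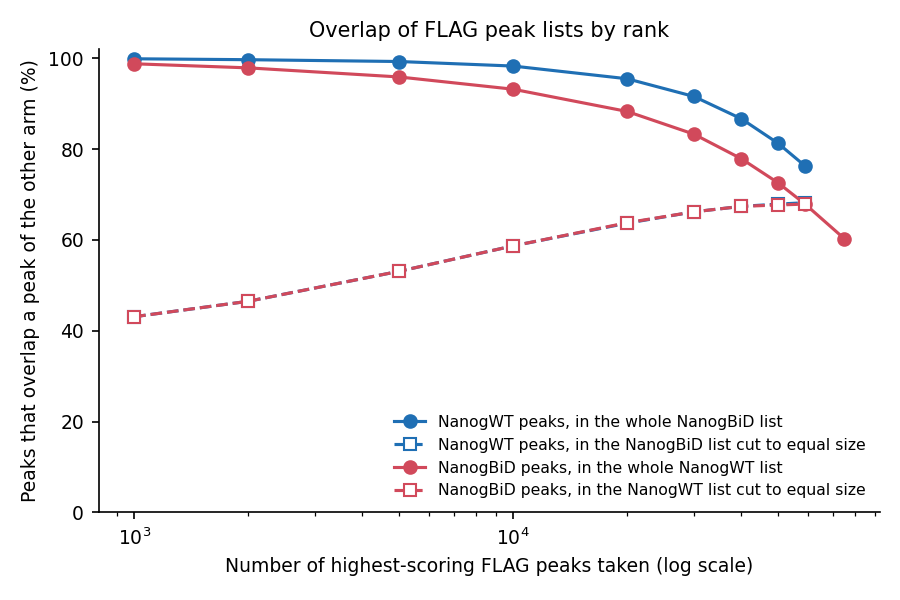
Share of FLAG peaks that overlap a peak of the other arm, in percent, against the number of highest-scoring peaks taken (log scale); filled circles and solid lines, overlap with the other arm's whole list; open squares and dashed lines, overlap with the other arm's list of the same size (both arms' dashed lines lie on each other). The 1000 strongest peaks overlap at 99.9% and 98.8% with the other whole list but at 43.1% with each other.

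The regions with the highest scores show what these classes hold. Among regions of NanogBiD only, the highest score, 669, belonged to an intergenic region at chr3:6886096-6887923 with 36 FLAG tags in NanogBiD, where BRG1 reached 27 tags and H3K27ac, a mark of active enhancers and promoters, 14 tags in NanogBiD and neither had a peak in NanogWT. The next, at chr3:135775374-135777113, had 38 FLAG tags and lay 49.0 kb from the start of Slc39a8, which encodes a zinc and manganese transporter. The third, at chr11:88014507-88016454, had 44 FLAG tags, 27.7 kb from Dynll2, which encodes a dynein light chain. It had BRG1 (39 tags), H3K27ac (25 tags) and H3K4me1 (18 tags), a mark of enhancers, in NanogBiD, with no peak of any of them in NanogWT.

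Among regions of NanogWT only, the highest score, 605, was found at chr2:80143700-80146063, with 37 FLAG tags, 15.1 kb from Pde1a, which encodes a calmodulin-dependent phosphodiesterase. Here BRG1 and H3K4me1 had peaks in both arms and H3K27ac had one in NanogWT, of 14 tags. The next lay in an intron of B3galt5, which encodes a galactosyltransferase (chr16:96292399-96293509), with 32 FLAG tags. Its H3K27ac peak of 19 tags and its BRG1 peak of 9 tags were in NanogWT. The third, at chr9:113588229-113590031, had 26 FLAG tags together with BRG1, H3K27ac and H3K4me1 peaks of 15 or 16 tags in NanogWT, and no peak of any target in NanogBiD.

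The highest-scoring shared regions were close to equal in height. The region at the start of 4932412D23Rik, 0.370 kb from a start site of the zinc finger repressor gene Zbtb20, had 78 FLAG tags in NanogWT and 77 in NanogBiD. A region in an intron of Cux1, a homeobox gene, had 80 and 65 tags. The region in an intron of Ppp2r3d, 0.951 kb from its start site, had 44 and 47 tags. BRG1 and both histone marks had peaks in both arms at all 3.

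At shared regions the FLAG summit, in tags as deposited, was a little higher in NanogBiD. Heights are not scaled to depth, so the direction of these ratios could turn with scaling, which was not tested. The median log2 ratio of NanogBiD over NanogWT height was 0.15, and it lay between 0.14 and 0.18 on each of the 20 chromosomes. NanogBiD was higher at 26074 shared regions, lower at 15443 and equal at 3012. A difference of 2-fold or more in favour of NanogBiD was found at 3440 of the 44529 shared regions (7.73%), and one in favour of NanogWT at 857 (1.92%). Centring the log2 ratios on their median brought these numbers to 2054 and 1407, so that the excess in NanogBiD fell from 4.01-fold to 1.46-fold. The summits of both arms lay a median of 76.0 bp apart, and 58.4% of them lay within 100 bp of each other. Across shared regions the heights of the arms had a Spearman correlation of 0.591. This is a description across regions that share 2 libraries, and regions are not replicates.

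The 3 shared regions with the largest ratio in favour of NanogBiD, among those with 30 tags or more in the higher arm, had about 10 tags in NanogWT. Near Dsp, which encodes the desmosomal protein desmoplakin of epithelial junctions, the heights were 10 tags in NanogWT and 57 in NanogBiD, a 5.70-fold difference (exact counting interval 2.88 to 12.5). The region at chr13:38132686-38134401 lay 17.8 kb from the Dsp start site, and BRG1, H3K27ac and H3K4me1 had peaks there in NanogBiD but not in NanogWT. Near Kcnk2, which encodes a potassium channel, they were 9 and 51 tags (5.67-fold, 2.76 to 13.1), 13.2 kb from the start site at chr1:189414354-189416425. In an intron of Lmx1b, a LIM homeobox gene, they were 11 and 61 tags (5.55-fold, 2.89 to 11.7). The NanogBiD arm alone had BRG1 and H3K27ac peaks at both of the latter, and H3K4me1 had a peak in both arms.

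The 3 shared regions with the largest ratio in favour of NanogWT kept only a low peak in NanogBiD. In an intron of Trappc9, which encodes a subunit of a vesicle trafficking complex, the heights were 48 tags in NanogWT and 9 in NanogBiD, a 5.33-fold difference (2.59 to 12.4). At chr15:7649445-7651325, for which Gdnf, a neurotrophic factor gene, was the nearest protein-coding gene at 161 kb, they were 34 and 8 tags (4.25-fold, 1.93 to 10.6). At chr13:31681320-31684099, 57.5 kb from the forkhead gene Foxf2, they were 36 and 9 tags (4.0-fold, 1.89 to 9.44). At the last region H3K27ac had a peak of 24 tags in NanogWT and none in NanogBiD. The other 2 had no H3K27ac peak in either arm. The Trappc9 region had a BRG1 peak of 10 tags in NanogBiD and none in NanogWT, the Gdnf region had none in either arm, and the Foxf2 region had 18 tags in NanogWT and 10 in NanogBiD.

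Over all shared regions the median height ratio differed with the presence of BRG1. At the 14236 shared regions with a BRG1 peak in NanogBiD but not in NanogWT, the median log2 ratio of FLAG height was 0.38, and 16.9% were 2-fold or more higher in NanogBiD. At the 1444 regions with a BRG1 peak in NanogWT but not in NanogBiD it was −0.17, and 8.52% were 2-fold or more higher in NanogWT. It was 0.10 where both arms had a BRG1 peak (22108 regions) and 0.00 where neither had one (6741 regions). For H3K27ac the median was 0.45 where the mark was found in NanogBiD only (7223 regions) and −0.21 where it was found in NanogWT only (2089 regions). It was 0.09 where both arms had the mark (22849 regions) and 0.21 where neither had it (12368 regions), an order opposite to that of BRG1. The BRG1 lists themselves held 53748 peaks in NanogBiD and 30859 in NanogWT, and the H3K27ac lists 42598 and 35452, so that the part of list size in these splits was not tested.

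**Figure D2:**
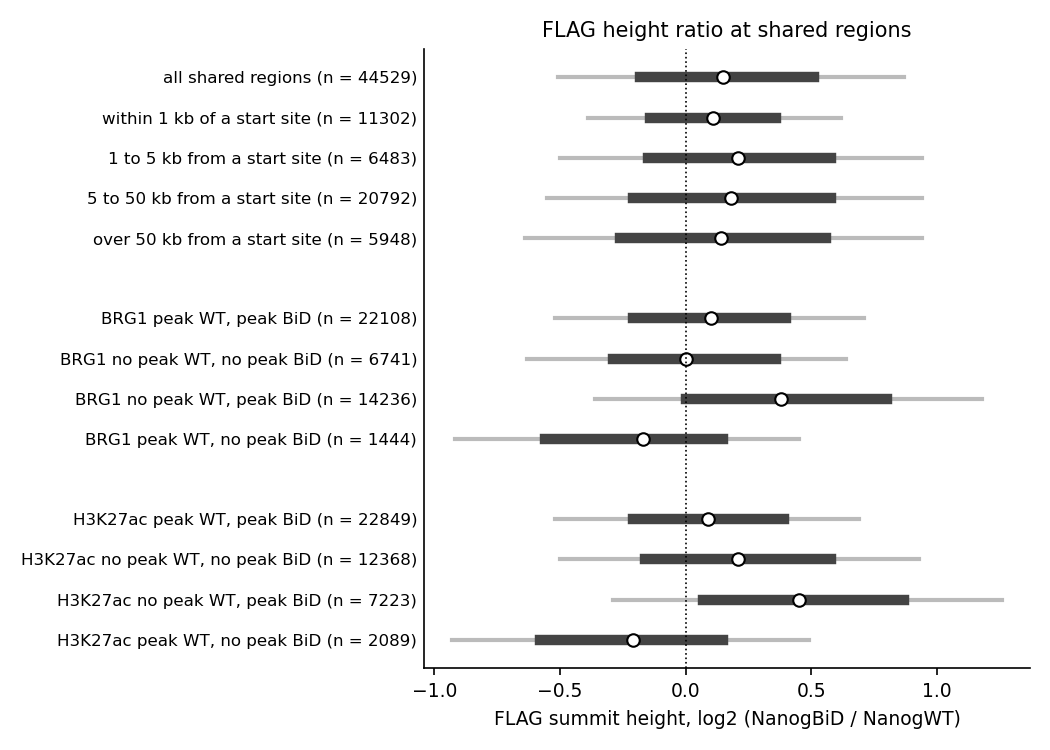
Log2 ratio of FLAG summit height, NanogBiD over NanogWT, at shared regions; white circles, median; dark bars, middle 50% of regions; grey lines, 10th to 90th percentile; rows group the regions by distance of the summit to a start site and by the arms with a BRG1 or H3K27ac peak. Regions with BRG1 or H3K27ac in NanogBiD only have medians of 0.38 and 0.45, and those with them in NanogWT only −0.17 and −0.21.

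The regions that differed 2-fold or more differed in their chromatin too. Of the 3440 regions higher in NanogBiD, 25.3% had a BRG1 peak in NanogWT and 95% in NanogBiD, and 24.8% had an H3K27ac peak in NanogWT and 65.9% in NanogBiD. H3K4me1 was at 47.6% of them in NanogWT and 59.7% in NanogBiD. Of the 857 regions higher in NanogWT, BRG1 was at 62.0% in NanogWT and 63.6% in NanogBiD, whose Wilson intervals overlapped (58.7 to 65.2 and 60.3 to 66.7). There H3K27ac was at 70.0% in NanogWT and 52.7% in NanogBiD, and H3K4me1 at 77.5% and 56.1%. At shared regions that differed by less than 2-fold, BRG1 was at 55.1% in NanogWT and 80.9% in NanogBiD, H3K27ac at 58.4% and 68.0%, and H3K4me1 at 69.6% and 64.7%. With the log2 ratios centred on their median, BRG1 was at 20.8% in NanogWT and 96.5% in NanogBiD for the 2054 regions higher in NanogBiD, and at 59.6% and 64.9% for the 1407 higher in NanogWT. H3K27ac was at 20.3% and 66.9% of the former, and at 67.4% and 53.3% of the latter.

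NanogBiD peaks lay farther from start sites. The median distance from summit to the nearest transcription start site was 9.85 kb in NanogWT and 10.9 kb in NanogBiD. Summits within 1 kb of a start site made up 22.2% of the NanogWT list (21.8 to 22.5) and 18.4% of the NanogBiD list (18.1 to 18.7). At equal list size the NanogBiD share was 20.3%. Among the 20000 highest-scoring peaks the shares were 31.1% and 27.2%, and among the 5000 highest-scoring they were 31.7% (30.4 to 33.0) and 30.6% (29.3 to 31.9), intervals that overlap. Counted by overlap of the whole peak with the 2 kb on either side of a start site, 28.8% of NanogWT peaks and 25.2% of NanogBiD peaks were at a promoter. Of the summits within 2 kb of a protein-coding start site, 52.0% lay upstream of it in NanogWT and 55.8% in NanogBiD.

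The promoter-near peaks were mostly those that both arms had. The summit lay within 1 kb of a start site in 25.4% of shared regions, 11.2% of NanogWT-only regions and 7.99% of NanogBiD-only regions. When regions were built from 20000 top-scoring peaks per arm, the shares were 36.1%, 22.1% and 11.7%, and the median distances 6.18, 11.3 and 14.7 kb. Shared regions with a difference of 2-fold or more also lay mostly away from start sites, with 8.23% within 1 kb where NanogBiD was higher and 7.58% where NanogWT was higher, against 27.2% below 2-fold. Heights were also closest between the arms at promoters. Within 1 kb of a start site the median log2 ratio was 0.11, 2.50% of regions were 2-fold or more higher in NanogBiD and 0.575% in NanogWT, and the Spearman correlation of heights was 0.754. Over 50 kb from a start site these values were 0.14, 9.41%, 3.26% and 0.498.

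**Figure D3:**
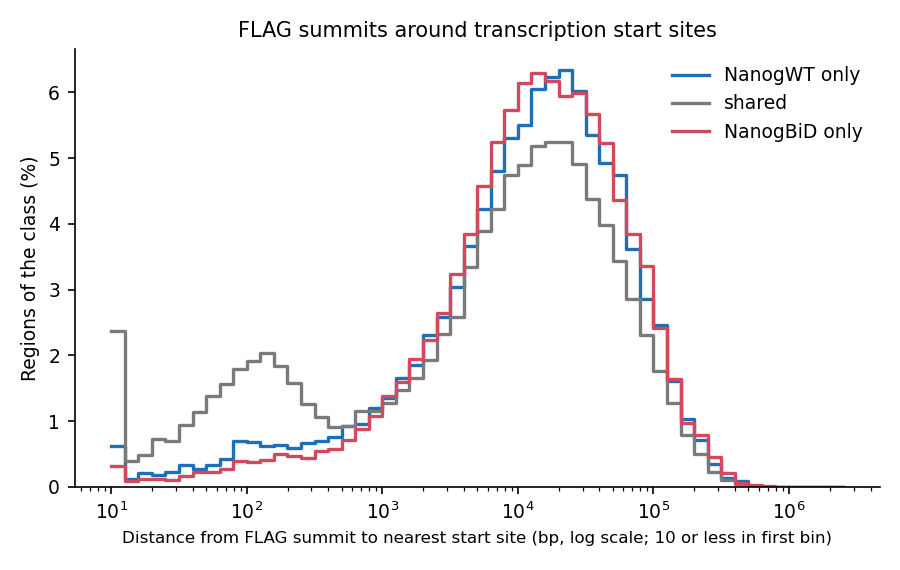
Distance from FLAG summit to the nearest annotated start site (bp, log scale, with 10 bp or less in the first bin) against the share of regions in each class, in percent. Shared regions have a second group of summits below 1 kb, where 25.4% of them lie, against 11.2% of NanogWT-only and 7.99% of NanogBiD-only regions.

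Most genes with FLAG at the promoter had it in both arms. Of 21755 protein-coding genes, 11293 (51.9%) had a FLAG peak within 2 kb of a start site in both arms, 1164 (5.35%) in NanogBiD only and 821 (3.77%) in NanogWT only. At equal list size the order of the arm-only genes turned, with 752 genes in NanogBiD only and 1385 in NanogWT only, and it was 780 and 1535 with the 20000 highest-scoring peaks. The larger number of genes in NanogBiD therefore held only while its list was longer. Over all 53843 annotated genes the counts were 2784 in NanogBiD only and 1637 in NanogWT only.

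Of 25 factors of the naive and core pluripotency network, 8 had a promoter FLAG peak in both arms (32.0%, against 51.9% of all protein-coding genes), 6 in NanogBiD only (24.0%, against 5.35%) and 2 in NanogWT only (8.0%, against 3.77%). With 20000 peaks per arm 2 were in NanogBiD only, Tfcp2l1 and the nuclear receptor gene Nr5a2 (against 3.59% of all protein-coding genes). At this setting 0 were in NanogWT only (against 7.06%). Among the 6 is Pou5f1, where tags from the Oct4-GFP reporter and from the gene cannot be told apart. Those in NanogBiD only were Pou5f1 (44 tags), which encodes OCT4, the transcription factor gene Tfcp2l1 (24 tags), the zinc finger genes Sall4 (14 tags), Sall1 (11 tags) and Zfp296 (10 tags), and Lin28a (10 tags), which encodes an RNA-binding protein. Among these 6, Tfcp2l1 had its peak among the 20000 highest-scoring, and the others did not. The NanogWT-only promoters were those of Mycn (14 tags) and Sox2 (10 tags). The promoters of the Kruppel-like factor genes were bound in both arms, Klf4 with 25 tags in each, Klf2 with 20 in NanogWT and 22 in NanogBiD, and Klf5 with 34 and 23. No promoter FLAG peak was listed in either arm for Nanog, Esrrb, Prdm14, Zfp42 or Utf1.

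Of 25 marker genes of pluripotent cells, 10 had promoter FLAG in both arms (40%, against 51.9% of all protein-coding genes), 1 in NanogBiD only (4.0%, against 5.35%) and 3 in NanogWT only (12.0%, against 3.77%). With 20000 peaks per arm it was 1 gene in NanogBiD only, against 3.59% of all protein-coding genes, and 0 in NanogWT only, against 7.06%. These counts are too small to order the arms. The gene in NanogBiD only on the whole lists was Foxb1, a forkhead gene, at 10 tags. Those in NanogWT only were Lefty2, a Nodal antagonist gene, at 10 tags, Spp1, which encodes osteopontin, at 9 tags, and the methyltransferase gene Prmt8 at 8 tags. The promoter of Tdgf1, which encodes a Nodal co-receptor, had 19 tags in NanogWT and 33 in NanogBiD, and that of Fbxo15 had 40 and 30.

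Of 20 epithelial genes, 5 had promoter FLAG in both arms (25%, against 51.9% of all protein-coding genes), 5 in NanogBiD only (25%, against 5.35%) and 1 in NanogWT only (5.00%, against 3.77%). With 20000 peaks per arm, 1 gene was in NanogBiD only (Cldn3, against 3.59% of all protein-coding genes) and 1 in NanogWT only (Crb3, against 7.06%). The imbalance of the whole lists was not there at this setting. The NanogBiD-only promoters were those of the tight junction genes Cldn6 (14 tags), Cldn4 (13 tags) and Ocln (9 tags), the splicing regulator gene Esrp1 (13 tags) and Dsp (13 tags). The NanogWT-only promoter was that of Grhl3, an epithelial transcription factor gene (10 tags). Cdh1 and Epcam, which encode adhesion proteins of epithelial cells, had none in either arm. The arm-only peaks of this list were at most 14 tags high, close to the median of either list, and were in neither list of the 20000 highest-scoring peaks.

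Of 26 matrix and surface genes, 22 had it in both (84.6%, against 51.9% of all protein-coding genes), 2 in NanogWT only (Lum at 9 tags and Mmp2 at 8, a proteoglycan and a matrix protease gene) and 1 in NanogBiD only (Pdgfrb, a growth factor receptor gene, at 16). These are 7.69% and 3.85% of the list, against 3.77% and 5.35% of all protein-coding genes. When 20000 peaks per arm were used, 2 genes were in NanogBiD only, against 3.59% of all protein-coding genes, and 1 in NanogWT only, against 7.06%. At this setting 10 of the 26 were shared, against 24.4%. Vim, which encodes the intermediate filament vimentin, had 60 tags in NanogWT and 54 in NanogBiD. Of 23 mesenchymal transcription factor genes, 13 had it in both arms (56.5%, close to the 51.9% of all protein-coding genes), and among them the median log2 height ratio was −0.28, against 0.11 over the 11293 protein-coding genes with promoter FLAG in both. Osr1 had 27 tags in NanogWT and 13 in NanogBiD, Prrx1 27 and 17, and Twist1 31 and 23. Snai2 (26 and 28 tags), Runx2 (17 and 19) and Ebf2 (14 and 15) were slightly higher in NanogBiD. With 20000 peaks per arm the promoters of Prrx1 and Runx1 had FLAG in NanogBiD only, and that of Ebf1 in NanogWT only. The promoters of Snai1 (19 tags), Prrx2 (13) and Twist2 (9) had FLAG in NanogBiD only, and those of Tbx5 (13) and Foxc2 (12) in NanogWT only, so that the members of this list did not move one way. The 3 in NanogBiD only are 13% of the list, against 5.35% of all protein-coding genes, and the 2 in NanogWT only are 8.70%, against 3.77%. Among 20000 peaks per arm, 2 of the 23 had promoter FLAG in both lists, fewer than the 24.4% of all protein-coding genes would give. At this setting 2 were in NanogBiD only, against 3.59% of all protein-coding genes, and 1 in NanogWT only, against 7.06%. As a check of the labelled cell type, H3K27ac was at the promoters of 14 of 15 fibroblast markers in each arm. It was at 2 of 8 macrophage markers in NanogWT and 3 in NanogBiD. For endothelial markers it was 3 and 6 of 8, and for neural markers 2 and 5 of 8. Over all 21755 protein-coding genes H3K27ac was at 12519 promoters in NanogWT and 13145 in NanogBiD. The NanogBiD shares of endothelial and neural markers were not below that of all genes. Of the pluripotent markers Nanog, Pou5f1, Sox2, Esrrb, Zfp42, Dppa5a, Tdgf1 and Sall4, none had promoter H3K27ac in NanogWT. Tdgf1 (20 tags) and Sall4 (14 tags) alone had it in NanogBiD. Among the neural markers Nes, which encodes nestin, had a promoter FLAG peak of 42 tags in NanogBiD and none in NanogWT.

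Promoter FLAG was found in both arms at 14 of 17 AP-1 genes (82.4%), at all 15 TEAD and Hippo genes and at 23 of 27 BAF subunit genes (85.2%), against 51.9% of all protein-coding genes. With 20000 peaks per arm these counts were 9, 5 and 10 genes, against 24.4% of all protein-coding genes. At this setting 2, 3 and 4 genes were in NanogWT only, against 7.06% of all protein-coding genes. In NanogBiD only there were 0, 0 and 1, against 3.59%. Jund, which encodes an AP-1 subunit, had 24 tags in NanogWT and 41 in NanogBiD, Junb 19 and 32, and Bach2, a repressor of the same family of bZIP factors, 23 and 49. Maf ran the other way, with 30 tags in NanogWT and 22 in NanogBiD, and with 20000 peaks per arm the promoters of Jund and Jun had FLAG in NanogWT only. The median log2 height ratio was 0.26 over the AP-1 genes, 0.09 over the TEAD and Hippo genes and 0.06 over the BAF genes. Smarca4 itself had 46 and 40 tags. Over members with promoter FLAG in both arms the median log2 ratio was 0.25 for the pluripotency factors (8 genes), 0.05 for the pluripotency markers (10 genes), 0.16 for the epithelial genes (5 genes) and 0.03 for the fibroblast matrix and surface genes (22 genes), beside 0.11 over all protein-coding genes with promoter FLAG in both.

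Regions far from start sites were assigned to the nearest protein-coding start site. Of 15760 genes that were nearest to a FLAG region, 1275 were nearest to NanogBiD peaks only and 573 to NanogWT peaks only. At equal list size the order turned, with 858 of 15344 genes nearest to NanogBiD peaks only and 1026 to NanogWT peaks only. The genes with the most NanogBiD-only regions were Adgrl2 and Tenm3 (41 each), Tenm4 (39), Auts2 (38) and Tenm2 (34). Those with the most NanogWT-only regions were Rbfox1 (30), Tenm4 (21), Auts2 (20), Macrod2 (18) and Celf2 (16). Tenm4 and Auts2 were in both rankings. Adgrl2 and the Tenm genes encode cell surface adhesion proteins and Rbfox1 and Celf2 encode RNA-binding proteins. Most of these are long genes, and counts of this kind grow with the length of a gene and its surroundings. Adgrl2 had 32 shared regions beside 41 of NanogBiD only and 13 of NanogWT only.

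Around the genes of the factors themselves some FLAG peaks lay in sequence that the cells also carried in added copies. Over Nanog exons a region 4.18 kb from the gene start had 24 FLAG tags in NanogWT and none in NanogBiD, and another at 5.79 kb had 30 and 12 tags. BRG1, H3K27ac and H3K4me1 also had peaks at both in NanogWT, H3K27ac at 39 and 47 tags. Tags from the delivered Nanog sequence and from the gene cannot be told apart in these lists. Upstream of Nanog, 4.79 kb from its start, a shared region had 9 tags in NanogWT and 13 in NanogBiD. On the flanks of Pou5f1, NanogBiD had FLAG peaks of 44 tags, 2.02 kb upstream, and 65 tags, 7.28 kb past the start in an intron of Tcf19, while NanogWT had one of 15 tags 5.19 kb upstream. The H3K4me1 peak overlapping the downstream region in NanogBiD had 78 tags, the highest of its list, and BRG1 had 67 tags there. Tags from the Oct4-GFP reporter and from the gene cannot be told apart either.

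Esrrb encodes an orphan nuclear receptor of the naive network. In and around it 5 regions were found in NanogBiD only, with 9 to 16 tags, and 1 in NanogWT only, with 12 tags. Over all regions 33.7% were in NanogBiD only and 15.8% in NanogWT only, and at equal list size 24.4% and 24.2%, so that counts of arm-only regions at single genes are given as a description. Around Dppa5a, a marker of pluripotent cells, 4 regions of 7 to 22 tags were found in NanogBiD only and none in NanogWT. Sall4 had a NanogBiD-only region of 14 tags at its start with BRG1 (11 tags) and H3K27ac (14 tags) in NanogBiD only, and a NanogWT-only intronic region of 8 tags. The other 2 regions listed around it lay in Atp9a, 26.5 and 25.7 kb past the Sall4 start. They were shared, with 11 and 14 tags in NanogWT and 10 and 17 in NanogBiD. At Sox2 an exonic region of 10 tags was found in NanogWT only. Ss18 had a shared peak at its start, with 18 tags in NanogWT and 22 in NanogBiD, and 5 NanogBiD-only regions of 11 to 17 tags in its introns.

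The sequence at the summits differed between the classes of regions. The NANOG-type site TAATGG lay within 50 bp of the summit in 9.12% of NanogBiD-only regions (8.79 to 9.45), 6.08% of shared regions and 4.0% of NanogWT-only regions (3.68 to 4.33), against 4.30% of 51186 windows of the same length spaced evenly over the genome (4.13 to 4.48). The AP-1 site TGANTCA, bound by FOS and JUN proteins, was at 10.6%, 9.90% and 6.31%, against 3.07% in the genome grid. The octamer ATGCAAAT, bound by OCT4, was at 2.89%, 2.20% and 1.30%, against 0.893%, and the SOX site ACAATG at 9.66%, 7.49% and 6.88%, against 6.46%. The TEAD site GGAATG was the reverse, at 6.38%, 7.06% and 8.42%, against 5.48%. The OCT-SOX composite, TTGT followed by any base and then by ATGCAAA, which overlaps the octamer in its letters, was rare, at 0.0909% of NanogBiD-only and 0.0215% of NanogWT-only regions. These are matches of letters and not measured binding, and the part of depth in the shares was not tested.

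Motif shares also differed among shared regions by their height ratio. The AP-1 site was at 15.8% of the shared regions 2-fold or more higher in NanogBiD (14.6 to 17.0), 9.49% of those that differed less and 5.37% of those higher in NanogWT (4.05 to 7.09). The NANOG-type site was at 11.6%, 5.62% and 5.83%, and the octamer at 3.72%, 2.07% and 2.22%, so that regions higher in NanogWT were not below those that differed less. The TEAD site was at 6.02%, 7.08% and 10.3%. With centred ratios the AP-1 site was at 15.2% of the regions higher in NanogBiD and 5.90% of those higher in NanogWT, the NANOG-type site at 13% and 5.19%, and the TEAD site at 6.04% and 9.81%. The KLF/SP box GGGCGG, common in promoters, was at 2.38%, 8.67% and 1.4% and at 0.957% of the genome grid. The RUNX site TGTGGTT differed little, at 3.81%, 3.18% and 2.92%, with overlapping intervals for the first and last, and at 2.34% of the genome grid. For the ETS, NF-Y, RFX and FOX sites the shares were 0.485%, 1.41%, 1.09% and 1.57% of NanogBiD-only regions, 0.516%, 1.09%, 1.14% and 1.22% of NanogWT-only regions, and 0.305%, 1.26%, 0.850% and 1.48% of the genome grid.

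**Figure D4:**
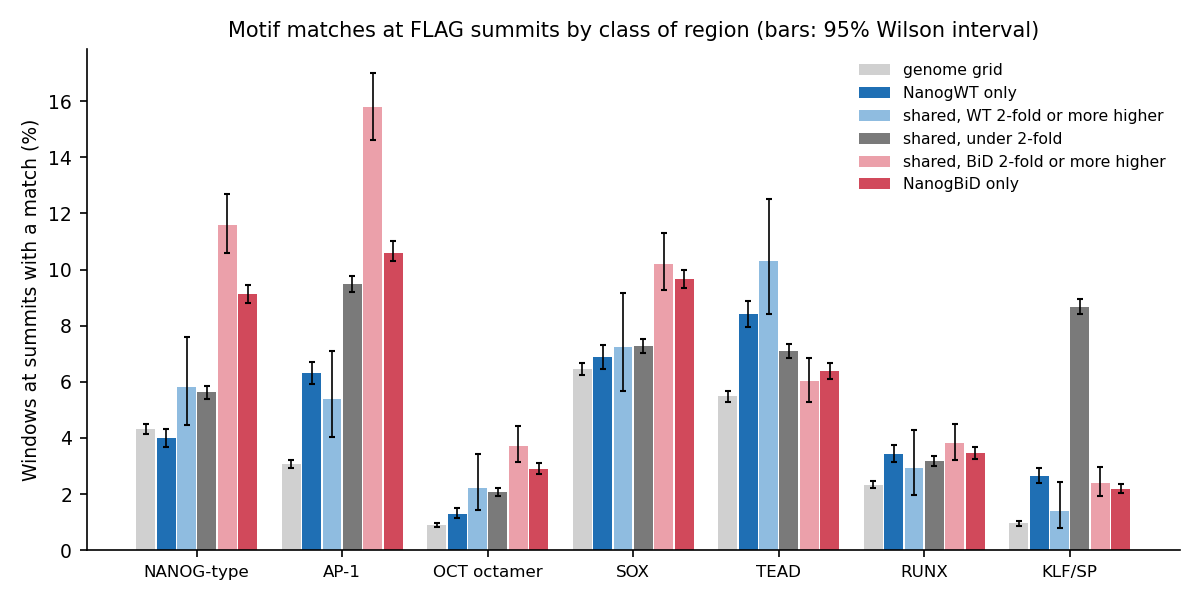
Share of 101-bp windows centred on FLAG summits with a motif match, in percent, by class of region and in the genome grid; bars start at 0 and error bars are 95% Wilson intervals. The NANOG-type and AP-1 sites are at 11.6% and 15.8% of shared regions 2-fold or more higher in NanogBiD, and the TEAD site is at 10.3% of those higher in NanogWT.

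Base composition differed between the classes as well. The median GC content of the windows was 41.6% in NanogBiD-only regions, 45.5% in shared regions and 44.6% in NanogWT-only regions, and 3.72%, 18.6% and 6.44% of them held 5 or more CpG. Among windows with 35 to 45% GC the NANOG-type site was at 10.7% of NanogBiD-only and 4.96% of NanogWT-only regions, the octamer at 3.54% and 1.71%, the AP-1 site at 11.7% and 7.32%, and the TEAD site at 6.64% and 8.93%. Shared regions of this GC range had the AP-1 site at 12.8% (12.3 to 13.3), above the NanogBiD-only regions (11.1 to 12.2), and the NANOG-type site at 8.43%. With 20000 peaks per arm and over 5 kb from a start site, the AP-1 site was at 13.6% of shared (12.8 to 14.5) and 13.1% of NanogBiD-only regions (12.2 to 14.1). In the genome grid of 35 to 45% GC the NANOG-type, octamer, AP-1 and TEAD sites were at 4.52%, 1.23%, 3.51% and 5.72%. Windows of which more than 50% was repeat sequence made up 7.99% of NanogBiD-only, 9.68% of NanogWT-only and 6.02% of shared regions, against 30.2% of the genome grid.

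The same motifs were centred on the summits of the complete lists. Within 50 bp of NanogBiD summits there were 20.1 NANOG-type matches per 1000 summits in each 25-bp bin, against 10.3 at 400 to 500 bp, a ratio of 1.95. In NanogWT the values were 13.5 and 10.2, a ratio of 1.32. For AP-1 the ratio of centre to flank was 3.79 in NanogBiD and 2.90 in NanogWT, and for the octamer 3.58 and 2.56. For TEAD it was 1.30 in NanogBiD and 1.43 in NanogWT. The flanks of both lists had like densities, with 7.70 and 7.82 AP-1 matches per 1000 summits in NanogBiD and NanogWT, so the difference lay at the summits. The part of depth in this difference was not tested. Among the 5000 peaks with the highest scores, the NANOG-type site was at 8.50% of NanogBiD and 5.60% of NanogWT windows, and the AP-1 site at 11.1% and 6.80%. The octamer was at 2.64% (2.23 to 3.12) and 2.42% (2.03 to 2.89) of these windows and the SOX site at 8.0% and 7.08% (7.28 to 8.79 and 6.40 to 7.83), with overlapping intervals.

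**Figure D5:**
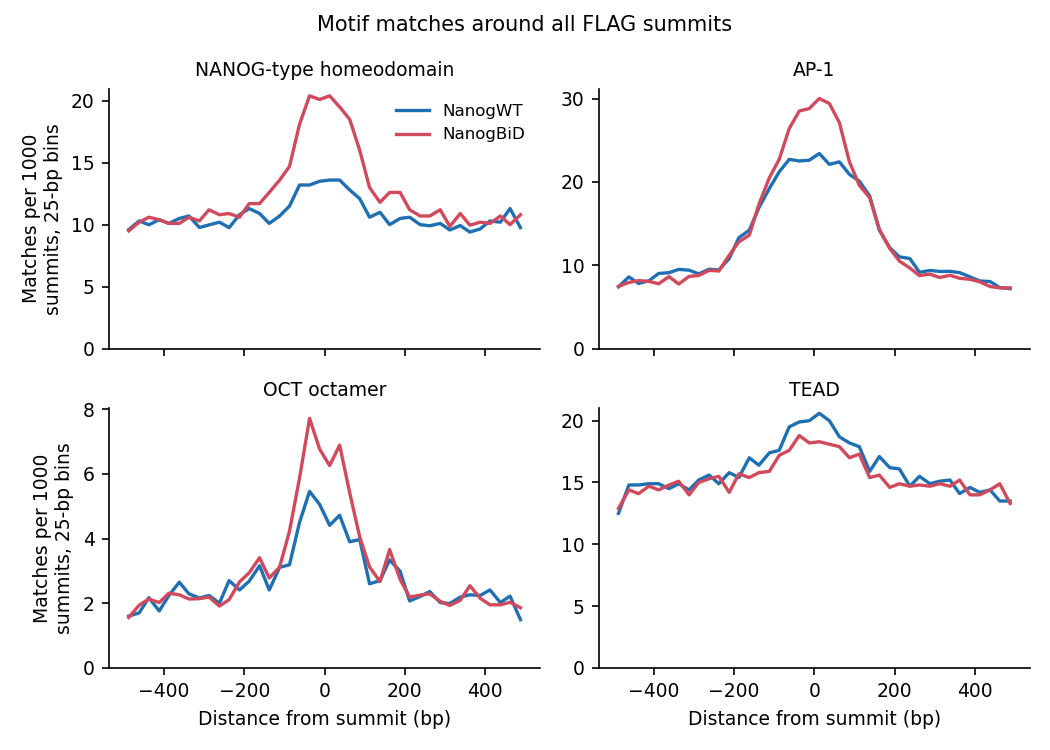
Motif matches per 1000 FLAG summits in 25-bp bins, against distance from the summit (bp), for all peaks of NanogWT and NanogBiD. NANOG-type, AP-1 and octamer matches peak at the summit more strongly in NanogBiD, and TEAD matches slightly more in NanogWT.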

How the data were processed

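The authors trimmed reads with Trim Galore 0.6.4, aligned them to mm10 with Bowtie2 2.4.5, filtered them with SAMtools 1.16.1 and called peaks with MACS 1.4.2 (shift 25 bp, duplicates reduced to 1 tag), per the labels and the methods. No control library is named for the peak calls. The authors deposited a list of peaks with a score and a list of summits with a height, the pileup of tags as a whole number, and neither is scaled to depth. Depth of the lists is not given, and heights summed to 988397 tags in NanogWT and 1334399 in NanogBiD.

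The name of a peak linked it to its summit. Peaks that overlapped by 1 bp or touched were merged into regions, and the height of a region in an arm was its tallest summit there. Start sites were those of all GENCODE vM21 transcripts, and summit sequence came from GRCm38, the assembly of mm10. Motif windows of shared regions were centred on the taller summit. The genome grid was 1 window every 50 kb without unknown bases. Named were the 3 highest-scoring regions of each class, the 3 shared regions with the largest ratio in each direction among those of 30 tags or more, the 5 genes nearest to most arm-only regions, up to 4 members of each gene list in each direction whose promoter state differed, and loci of 7 genes. Members of lists beyond that rule are examples chosen after their values were seen. The regions compared, the lists and the alternatives were chosen with earlier results of these data known. Merging, classing, distances and motif counts were tested on simulated data. Python 3.11.15, pandas 2.3.3, scipy 1.17.1 and pyfaidx 0.9.0.4 were used. With 1 library per arm no test was made, and shares have 95% Wilson intervals.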

Additional observations from a re-analysis of the deposited data

How the results depend on the processing

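Differences are NanogBiD minus NanogWT, ratios NanogBiD over NanogWT. Of 60 alternative values over 14 results, 32 stayed close to the reported value, 24 moved and 4 turned, and the cause of those that moved was not tested beyond what the alternative itself changes. At equal list size the difference in median width turned from −37.0 bp to 60.0 bp, and it was −55.0 bp with 20000 peaks of either list and −74.0 bp for scores of 100 or more. The difference in promoter share, −3.63 percentage points, was −1.90 at equal list size and −4.29 for scores of 100 or more. The difference in median distance, 1.09 kb, was 2.62 kb with protein-coding start sites. The ratio of arm-only regions, 2.13, was 1.01 at equal list size and 1.0 with 20000 peaks by score, 20000 by height or 5000 by score, where list size fixes it. The median log2 height ratio, 0.15, was 0.19 at equal list size and 0.13 with 20000 peaks or scores of 100 or more. The ratio of shared regions with a 2-fold difference, 4.01, was 1.46 after centring. The ratio of genes with promoter FLAG in 1 arm, 1.70, turned to 0.72 at equal list size and 0.60 with 20000 peaks. The ratio of genes nearest to regions of 1 arm only, 2.23, turned to 0.84 at equal list size.

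The difference in the share of regions with the NANOG-type site between arm-only classes, 5.12 percentage points, was 5.58 at equal list size, 5.63 with 20000 peaks and 5.78 in windows of 35 to 45% GC. For AP-1, 4.30, it was 6.02 with 20000 peaks and 4.98 for such regions over 5 kb from a start site, and for TEAD, −2.03, it was −2.68 over 5 kb from a start site. With windows of 25 bp either side the differences were 2.64 for the NANOG-type site, 2.27 for AP-1, 0.734 for the octamer, 1.38 for SOX and −1.02 for TEAD, as shorter windows hold fewer matches. The settings of 5000 peaks, of equal list size for the nearest genes, of centred ratios for chromatin and motif shares, of 35 to 45% GC and over 5 kb from a start site were chosen after seeing the data. Scaling heights by the number of tags implied by the scores was not run, because peaks of 1 height had widely different scores. No paired analysis was possible because each arm had 1 merged library. Low peaks set the limit of what these lists show: a region listed in 1 arm may have tags under the caller's threshold in the other, so absence from a list is no measure of absent binding.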
